A study of Mus musculus with 24 samples.

Results

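The genes examined here mark the neurons that release monoamines or acetylcholine: Th, Ddc, Dbh and Tph2, which encode enzymes of dopamine, noradrenaline and serotonin synthesis, Chat, which encodes the enzyme of acetylcholine synthesis, Slc18a2 and Slc18a3, which encode the transporters that load these transmitters into vesicles, and Slc6a3, Slc6a4 and Slc5a7, which encode the plasma membrane carriers for dopamine, serotonin and choline. They were chosen by name as 10 genes of these transmitter systems, and a gene was taken to have an H3K4me3 region when a counted region held the first base of an annotated transcript, the transcription start site (TSS). By this rule, 2 of the 10 genes had a region, Slc6a3 and Slc6a4, each with 1 region out of 17993 in all. A further region lay 760 bp from the Chat TSS and held the start of Slc18a3, a gene that the annotation used (GENCODE M1, on mm9) does not list.

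Trimethylation of lysine 4 of histone H3 (H3K4me3) is a histone mark of promoters, and promoters rich in CpG dinucleotides carry it more often than promoters poor in CpG. The cell bodies of dopamine, noradrenaline and serotonin neurons lie in the midbrain and hindbrain and send axons to the cortex, where nuclei are those of cortical neurons, glia and vascular cells. Most cholinergic input to the cortex comes from the basal forebrain, and a small class of cortical interneurons also expresses Chat. The genes that receive these transmitters, in contrast, are expressed by cortical neurons themselves.

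All libraries came from the cerebral cortex of C57BL/6 mice that carried a histone H2B-FLAG cassette, under the CAG promoter, in the Rosa26 locus. In Rosa H2B-FLAG mice the cassette had been opened in the germ line by Vasa-Cre, so that nearly all cells carried the tag, and these mice were heterozygous for it. In Camk2a H2B-FLAG mice, which carried Rosa26 CAG-floxed-pA-H2B-FLAG and CaMKCreERT2, tamoxifen (1 mg per day for 5 days, from 8 weeks of age, in males) opened it in Camk2a-expressing neurons, and tissue was taken a month later. No tamoxifen is described for Rosa H2B-FLAG mice, so that line, Cre driver and tamoxifen cannot be told apart. Each lysate pooled 2 animals. H3K4me3 was measured by single ChIP-Seq (anti-H3K4me3 antibody on whole cortex chromatin) and by tChIP-Seq (anti-FLAG antibody, then anti-H3K4me3 antibody), which gave 4 groups of 3 libraries. Total counts over the regions ranged from 6316125 to 8644574 in Rosa single ChIP-Seq, from 1457261 to 1828371 in Rosa tChIP-Seq, from 4063200 to 4233144 in Camk2a single ChIP-Seq and from 2709729 to 3049130 in Camk2a tChIP-Seq. Markers of excitatory neurons, the cells that carry the tag in the Camk2a line, had a region for 6 of 7 genes. Of these 6, 5 were higher in Camk2a than in Rosa tChIP-Seq (edgeR adjusted p under 0.01), as were 17% of all regions. None of the 5 microglia markers had a region at a TSS.

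To show what the starts with and without a region look like, the 250 bases before the TSS are given for 3 starts that lay inside a region and 3 that did not. They are written 5′ to 3′ on the gene's own strand, in mm9 (NCBIM37), with each CpG in capitals. The window of Slc6a3 lay at chr13:73673945-73674194 (plus strand), that of the Slc6a4 transcript Slc6a4-003 at chr11:76811855-76812104 (plus strand) and that of Slc18a3 at chr14:33278037-33278286 (minus strand), and these 3 starts were inside a region. The window of the upstream start of Slc18a2 lay at chr19:59335118-59335367 (plus strand), that of the Th transcript Th-002 at chr7:150085920-150086169 (minus strand) and that of Slc5a7 at chr17:54438360-54438609 (minus strand), and these 3 were not. The start of Slc18a3 was placed by an exact match of its RefSeq promoter sequence to mm9.
Slc6a3: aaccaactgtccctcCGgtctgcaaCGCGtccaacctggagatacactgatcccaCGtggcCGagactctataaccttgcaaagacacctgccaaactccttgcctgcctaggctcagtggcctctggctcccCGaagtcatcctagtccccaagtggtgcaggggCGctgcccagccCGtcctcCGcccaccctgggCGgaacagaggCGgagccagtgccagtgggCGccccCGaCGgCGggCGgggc
Slc6a4-003: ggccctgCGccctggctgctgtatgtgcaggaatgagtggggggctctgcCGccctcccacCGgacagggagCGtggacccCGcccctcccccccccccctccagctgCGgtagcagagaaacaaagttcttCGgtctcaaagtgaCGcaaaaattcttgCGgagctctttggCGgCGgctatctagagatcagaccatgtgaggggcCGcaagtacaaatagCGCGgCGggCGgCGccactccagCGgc
Slc18a3: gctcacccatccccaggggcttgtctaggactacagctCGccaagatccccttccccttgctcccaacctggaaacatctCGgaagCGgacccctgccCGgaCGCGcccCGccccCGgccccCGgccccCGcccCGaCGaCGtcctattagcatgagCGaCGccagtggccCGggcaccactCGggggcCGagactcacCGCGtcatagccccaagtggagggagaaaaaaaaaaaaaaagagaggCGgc
Slc18a2: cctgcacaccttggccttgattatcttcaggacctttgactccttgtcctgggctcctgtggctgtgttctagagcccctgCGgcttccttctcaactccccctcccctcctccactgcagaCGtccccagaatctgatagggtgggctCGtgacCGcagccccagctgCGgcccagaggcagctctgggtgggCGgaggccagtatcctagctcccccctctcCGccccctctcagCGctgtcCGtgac
Th-002: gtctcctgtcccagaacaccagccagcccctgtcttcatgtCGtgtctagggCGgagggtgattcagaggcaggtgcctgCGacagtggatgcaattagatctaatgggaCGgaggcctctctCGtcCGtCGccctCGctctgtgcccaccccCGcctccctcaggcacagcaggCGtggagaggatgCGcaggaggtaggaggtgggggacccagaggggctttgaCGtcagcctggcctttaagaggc
Slc5a7: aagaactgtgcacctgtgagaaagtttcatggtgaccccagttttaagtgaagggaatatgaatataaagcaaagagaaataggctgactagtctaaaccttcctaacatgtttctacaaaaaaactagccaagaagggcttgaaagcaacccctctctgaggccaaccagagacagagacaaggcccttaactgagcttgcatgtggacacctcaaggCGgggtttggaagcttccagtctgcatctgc

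The upstream windows of Slc18a3, Slc6a4-003 and Slc6a3 held 21, 18 and 16 CpGs, and a second start of Slc6a4 inside its region (Slc6a4-001) held 20. The 13 windows whose start lay outside every region, from 8 genes, held from 1 CpG at Slc5a7 to 15 at the downstream start of Slc18a2. Among them were the upstream start of Slc18a2 with 9, Chat with 8, Tph2 with 7 and Dbh with 5, while Th had 12 at Th-002 and 3 at each of its other listed coding starts, and Ddc had 5 at Ddc-001 and 4 at each of the others. Every window inside a region therefore held more CpGs than every window outside one, with 16 and 15 as the nearest values. Slc6a4 showed both kinds, since a downstream start of the same gene, Slc6a4-002, held 6 CpGs and lay 10300 bp from the region. The 4 windows inside a region came from 3 genes. Windows of starts that lie close together overlap, as for Slc6a4-003 and Slc6a4-001, Th-001 and Th-003, and Ddc-201 and Ddc-002. These are not separate observations. Over 45975 windows of the same length before the starts of coding transcripts, the median was 17 CpGs for starts inside a region and 3 for starts outside. GC content overlapped between the kinds, at 64.8% to 66.0% for starts inside and 43.6% to 67.2% for starts outside.

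**Figure D1:**
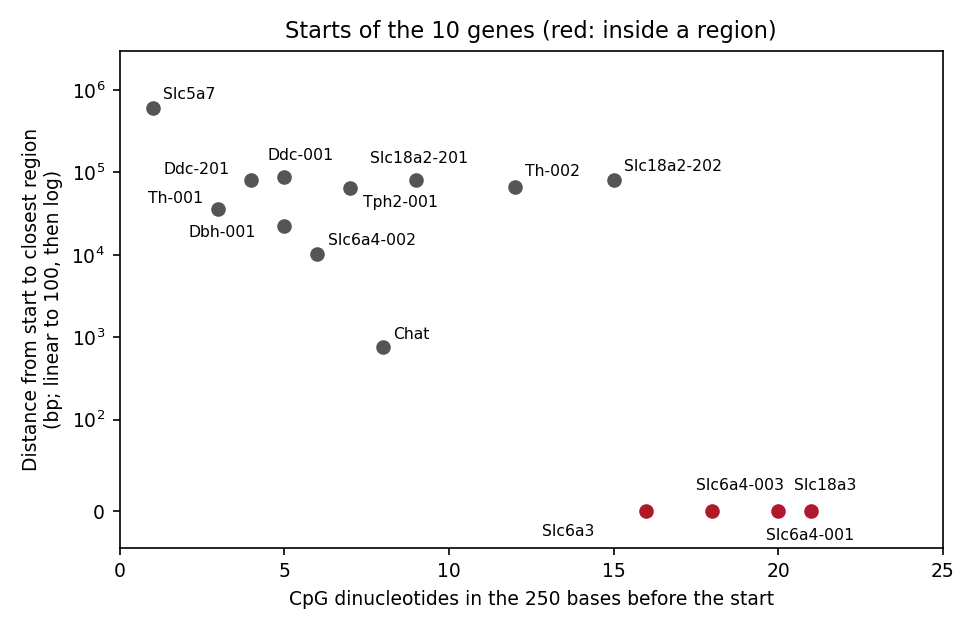
Distance in bp from each coding start of the 10 genes to the closest counted region (vertical axis, linear up to 100 bp and logarithmic above) against the number of CpG dinucleotides in the 250 bases before the start (horizontal axis). Points are starts, with those of equal CpG number and nearly equal distance drawn once, labels are genes or transcripts, and red points are starts inside a region: the 4 red points lie at 16 to 21 CpGs and the gray points at 1 to 15.

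The same windows were searched on both strands for the letters of known promoter elements. The cAMP response element TGACGTCA was found before Th-002 and before the downstream start of Slc18a2, and in 1.87% of all windows. AAAGGTCA, the element that Nr4a2, a factor of dopamine neurons, and its relatives bind, was found before Ddc-001 and in 1.06% of all windows. The TATA box letters TATAAA were found before Th-001, Th-003, Ddc-001, Tph2, Slc6a4-002 and Slc5a7, and in 10.5% of all windows. For RE1, the element of the repressor REST, the left arm TTCAGCACC was in none of the windows of these genes (0.311% of all windows) and the right arm GGACAGC was in both Slc18a2 windows (5.96% of all windows). None of the 4 windows whose start lay inside a region held any of these letters.

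Most of the 10 synthesis and transport genes had no H3K4me3 region at their start in these libraries. Of 22380 annotated protein-coding genes, 13342 (59.6%) had a region at a TSS, against 2 of the 9 genes here that the annotation lists. Slc18a3, which it does not list, has its start inside a region by the RefSeq match. Among the enzymes, the closest region lay 36233 bp from a Th start, 13144 bp from a Ddc start (at Fignl1), 22195 bp from Dbh (at Fam163b) and 64905 bp from Tph2 (at Tbc1d15). These distances are from the closest annotated start of any transcript. The coding starts of Ddc lay 80592 to 88267 bp from a region, and Th-002 lay 67347 bp from one. Among the transporters, the closest region lay 81823 bp from Slc18a2 (at Pdzd8) and 608625 bp from Slc5a7 (at Sgol1). None of these 6 genes had a region anywhere between its annotated ends. The region list was made from peaks that the authors found in triplicate experiments, so a gene without a region has no count in these data, and its level of H3K4me3 was not measured as absent.

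The regions of Slc6a3 and Slc6a4 were the exceptions. For Slc6a3 (ENSMUSG00000021609.6), the region spanned chr13:73673852-73674489, 638 bp wide, with 343 bases before the TSS at 73674195 and 295 from it onward. For Slc6a4 (ENSMUSG00000020838.5), it spanned chr11:76810812-76812478, 1667 bp wide, with 1293 bases before the first TSS at 76812105 and 374 from it onward, so that most of it lay upstream of the gene. No other gene started in either region. The region near Chat (ENSMUSG00000021919.6) spanned chr14:33277627-33278335, 709 bp wide, inside the first intron of Chat. It held the start of the lincRNA Gm2990 on the plus strand at 33278228 and that of Slc18a3 on the minus strand at 33278036. Slc18a3 lies within the Chat gene and is transcribed in the same direction, and the counts of this region cannot be divided among the 3 genes. The 3 regions were CpG dense, with 54.9, 55.2 and 88.9 CpGs per kb for Slc6a3, Slc6a4 and the Chat and Slc18a3 locus, against a median of 41.1 over 17968 regions.

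Levels at these regions were low in every group. In CPM (counts per 1000000 of the library total, scaled by TMM factors over the 12 libraries), the 3 Rosa single ChIP-Seq libraries gave 1.16, 1.44 and 2.29 at Slc6a3, from 8, 12 and 14 counts. Rosa tChIP-Seq gave 7.30, 8.95 and 7.87 CPM there, from 14, 15 and 12 counts. Every Rosa tChIP-Seq library thus lay above every Rosa single ChIP-Seq library. Camk2a single ChIP-Seq gave 2.71, 3.34 and 3.24 CPM at Slc6a3, from 11, 14 and 13 counts. Camk2a tChIP-Seq gave 7.22, 7.22 and 8.10 CPM, from 22, 20 and 22 counts. The tChIP-Seq libraries of the 2 lines overlapped, and those of single ChIP-Seq did not. The share of all regions at which groups of libraries do not overlap is not given here, for these or the separations below.

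At Slc6a4, which clears serotonin from the synapse, Rosa single ChIP-Seq gave 9.85, 6.70 and 7.85 CPM, from 68, 56 and 48 counts. Rosa tChIP-Seq gave 32.4, 28.6 and 26.9 CPM, from 62, 48 and 41 counts. Both tChIP-Seq groups stood well above both single ChIP-Seq groups here. Camk2a single ChIP-Seq gave 11.1, 9.54 and 10.7 CPM, from 45, 40 and 43 counts. Camk2a tChIP-Seq gave 27.9, 28.5 and 27.3 CPM, from 85, 79 and 74 counts. The lines overlapped in each kind of ChIP-Seq.

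At the Chat and Slc18a3 region, Rosa single ChIP-Seq gave 1.45, 0.838 and 1.15 CPM, from 10, 7 and 7 counts. Rosa tChIP-Seq gave 6.78, 5.37 and 5.25 CPM, from 13, 9 and 8 counts. Camk2a single ChIP-Seq gave 1.72, 2.39 and 2.74 CPM, from 7, 10 and 11 counts. Here all 4 groups stood apart from each other, since Camk2a tChIP-Seq gave 7.55, 9.74 and 8.47 CPM, from 23, 27 and 23 counts, and every library of it exceeded every Rosa tChIP-Seq library.

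**Figure D2:**
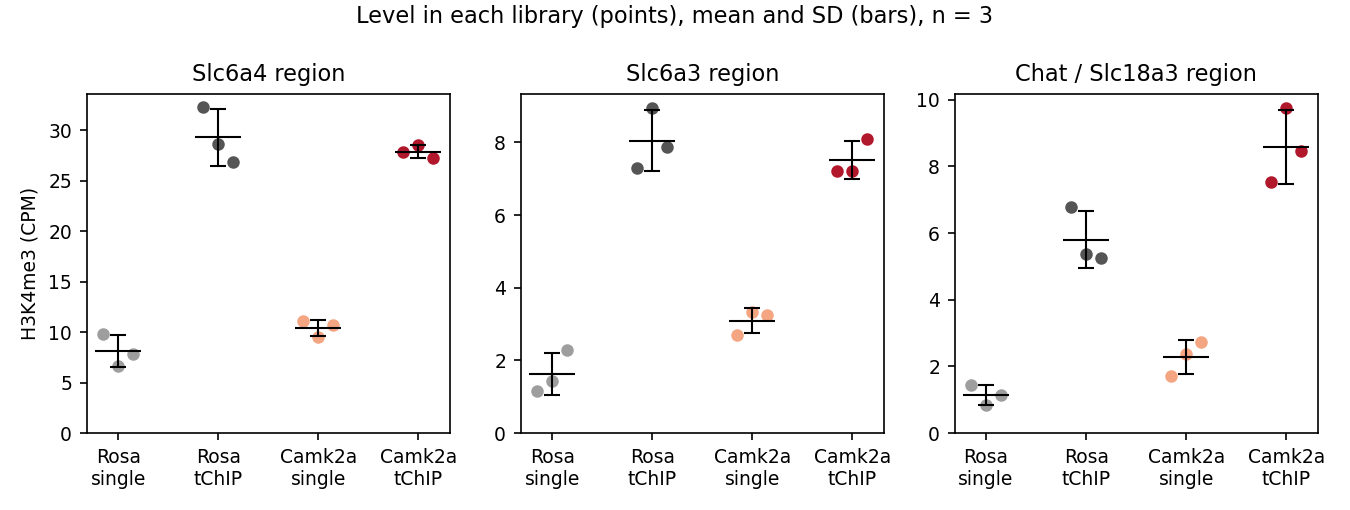
H3K4me3 level in CPM (vertical axis, from 0, with its own range in each panel) at the Slc6a4, Slc6a3 and Chat / Slc18a3 regions, for the 3 libraries of each of the 4 groups (points) with the mean and SD (bars). In each panel, the tChIP-Seq libraries of both lines lie above all single ChIP-Seq libraries.

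Compared per length, Slc6a4 had the highest mean of the 3 regions in each group. In Rosa tChIP-Seq, Slc6a4 reached 17.6 ± 1.67 CPM per kb, Slc6a3 12.6 ± 1.31 and the Chat and Slc18a3 region 8.18 ± 1.20 (SD, n = 3), where the median of all regions was 23.8. Camk2a tChIP-Seq gave 16.7 ± 0.375, 11.8 ± 0.802 and 12.1 ± 1.56 CPM per kb in the same order (SD, n = 3), so that Slc6a3 and the Chat and Slc18a3 region did not differ beyond their spread. In Rosa single ChIP-Seq, the values were 4.88 ± 0.956, 2.55 ± 0.925 and 1.61 ± 0.431 CPM per kb (SD, n = 3), against a median of 23.3, and the last 2 again lay within their spread of each other. Camk2a single ChIP-Seq gave 6.27 ± 0.481, 4.85 ± 0.533 and 3.22 ± 0.729 CPM per kb (SD, n = 3). By this measure, Slc6a4 exceeded 5.97% of all regions in Rosa single ChIP-Seq and 33.9% in Rosa tChIP-Seq, Slc6a3 1.22% and 20.1%, and the Chat and Slc18a3 region 0.378% and 7.87%. In the Camk2a line, the shares for single ChIP-Seq and tChIP-Seq were 8.30% and 32.8% at Slc6a4, 3.63% and 17.8% at Slc6a3, and 0.917% and 18.9% at the Chat and Slc18a3 region, which stood above Slc6a3 in tChIP-Seq there and below it in Rosa.

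The comparison of tChIP-Seq with single ChIP-Seq asks what the purification of tagged chromatin changes. All 3 regions were higher after it in both lines, as tested with edgeR's quasi-likelihood test (Benjamini-Hochberg adjustment over all regions, called at an adjusted p under 0.01). Which libraries' peaks brought each region into the list is not given. A region listed through tChIP-Seq peaks alone would lean to higher values in tChIP-Seq, and this was not tested. The paper reports sites that differ between tChIP-Seq and single ChIP-Seq in the Rosa line. It names a possible bias towards longer DNA after the H2B purification, and possible effects of the tag or the H2B variant. To offset such biases, its later analyses mainly compared the lines in tChIP-Seq and left the 2 kinds of ChIP-Seq uncompared. All comparisons of the 2 kinds given here carry this limit. In the Rosa line, Slc6a3 rose 5.00-fold (log2 fold change 2.32, SE 0.343, adjusted p = 1.28e-10) and Slc6a4 3.68-fold (1.88, SE 0.171, adjusted p = 4.24e-26), so both of the 2 regions at an annotated TSS were called higher where 24.7% of all regions were (47.2% in either direction). The Chat and Slc18a3 region rose 5.16-fold (2.37, SE 0.402, adjusted p = 2.79e-08). Ranked by log2 fold change from the highest among 17993 regions, the 3 stood at 118, 304 and 106.

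In the Camk2a line, where 25.3% of all regions were called higher (47.9% in either direction), the increase was 2.40-fold at Slc6a3 (log2 fold change 1.27, SE 0.290, adjusted p = 7.36e-05) and 2.67-fold at Slc6a4 (1.41, SE 0.158, adjusted p = 3.86e-15). At the Chat and Slc18a3 region it was 3.71-fold (1.89, SE 0.302, adjusted p = 1.65e-08). The ranks were 830, 602 and 191. No tChIP-Seq library overlapped with a single ChIP-Seq library of its line at any of the 3 regions. The share of all regions for which this holds is not given here.

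Regions of low level rose in tChIP-Seq more often than regions of high level, and these 3 were of low level. When all regions were divided into 10 equal bins by mean level over the groups, the Chat and Slc18a3 region fell into bin 1 (the lowest), Slc6a3 into bin 2 and Slc6a4 into bin 3. In the Rosa line, 30.6%, 54.3% and 55.8% of the regions of these bins were called higher in tChIP-Seq, with median log2 fold changes of 0.76, 0.83 and 0.65, against 3.17% and a median of -0.28 in bin 10. The log2 fold changes of the 3 regions exceeded the 90th percentile of their own bins, which was 1.81, 1.72 and 1.38. In the Camk2a line, the medians were 0.56, 0.50 and 0.31 and the 90th percentiles 1.72, 1.42 and 1.14, and the Slc6a3 region (1.27) lay below that of its bin while the other two lay above. The part of this dependence on level in the increase was not tested.

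**Figure D3:**
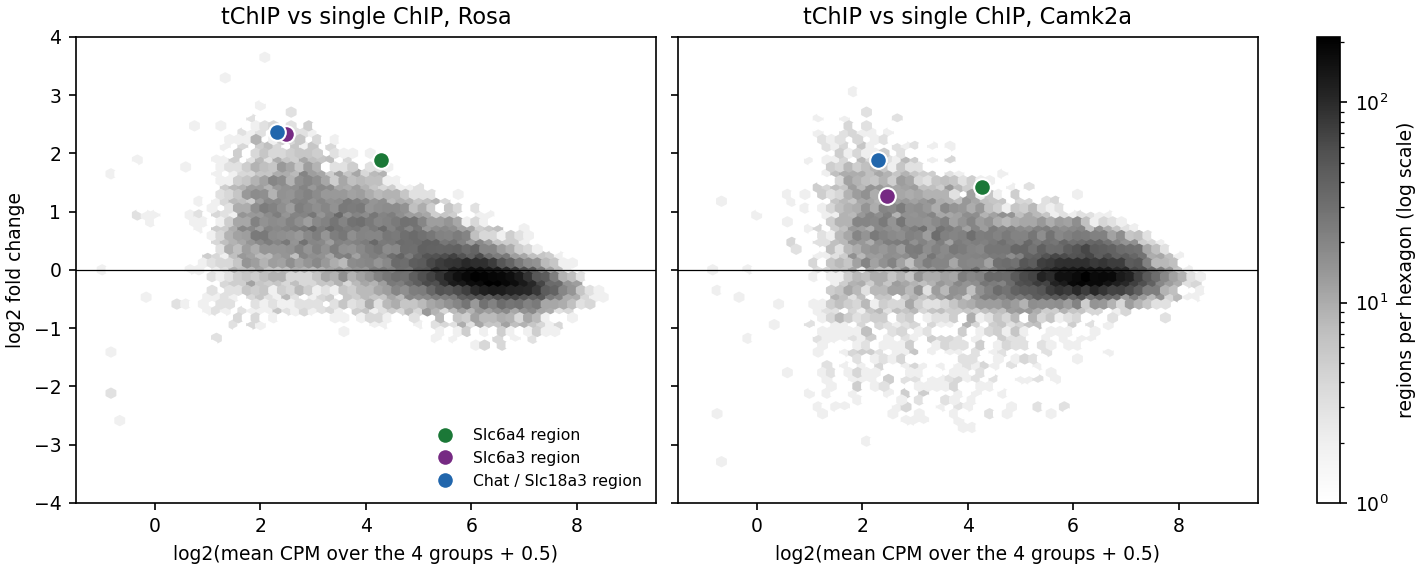
Log2 fold change between tChIP-Seq and single ChIP-Seq (vertical axis) against log2 of the mean CPM over the 4 groups plus 0.5 (horizontal axis) for all regions, drawn as hexagons shaded by the number of regions on a log scale, in the Rosa line (left) and the Camk2a line (right). The 3 colored points, the Slc6a4, Slc6a3 and Chat / Slc18a3 regions, lie at the low end of the level and in the upper part of the change in both panels, at 1.88 to 2.37 in Rosa and 1.27 to 1.89 in Camk2a.

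The comparison of the 2 lines in tChIP-Seq asks how H3K4me3 in Camk2a-expressing neurons differs from that in cortical cells at large. Neither Slc6a3 nor Slc6a4 was called in this comparison, in which 31.6% of all regions were. Slc6a3 was at 8.04 ± 0.833 CPM in Rosa and 7.51 ± 0.512 in Camk2a tChIP-Seq (SD, n = 3), with a log2 fold change of -0.09 (95% interval -0.66 to 0.48, edgeR adjusted p = 0.837). Slc6a4 was at 29.3 ± 2.79 and 27.9 ± 0.625 CPM (SD, n = 3), with a log2 fold change of -0.07 (95% interval -0.37 to 0.22, edgeR adjusted p = 0.736). The Chat and Slc18a3 region was at 5.80 ± 0.854 CPM in Rosa and 8.59 ± 1.10 in Camk2a (SD, n = 3), a log2 fold change of 0.55 (95% interval -0.05 to 1.15) that did not pass the test (edgeR adjusted p = 0.146). The libraries of the lines did not overlap there, and the share of all regions for which this holds is not given here. Fewer cells with the mark and less of it per cell cannot be told apart in these pooled tissues.

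In single ChIP-Seq, where chromatin of all cells was used in both lines, the 3 regions had higher means in the Camk2a line, and none was called (2.15% of all regions were). The log2 fold change was 0.95 at Slc6a3 (95% interval 0.29 to 1.61, edgeR adjusted p = 0.0632), 0.37 at Slc6a4 (95% interval 0.03 to 0.71, edgeR adjusted p = 0.183) and 1.01 at the Chat and Slc18a3 region (95% interval 0.23 to 1.78, edgeR adjusted p = 0.0961). At unadjusted p, the values were 0.00511, 0.0336 and 0.011. Regions of the same low bins also had medians above 0 in this comparison, at 0.23, 0.23 and 0.16 for bins 1 to 3. The interaction, which tests whether the line effect differs between the kinds of ChIP-Seq, gave -1.04 at Slc6a3 (95% interval -1.92 to -0.17, edgeR adjusted p = 0.0555), -0.45 at Slc6a4 (adjusted p = 0.121) and -0.46 at the Chat and Slc18a3 region (adjusted p = 0.518), and called none of them, where 26.9% of all regions were called. These comparisons share libraries with each other and are not independent.

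**Figure D4:**
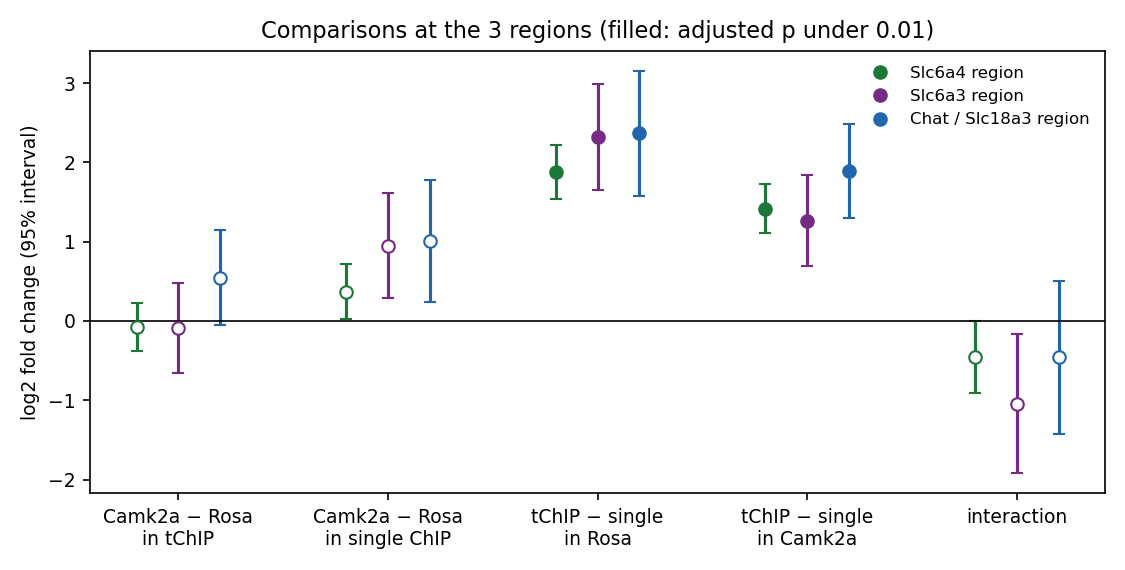
Log2 fold change with its 95% interval (vertical axis) at the Slc6a4, Slc6a3 and Chat / Slc18a3 regions in the 5 comparisons (horizontal axis), with filled points for an adjusted p under 0.01. Filled points occur in the comparisons of tChIP-Seq with single ChIP-Seq in each line and in none of the others.

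The genes that act around these 10, in the cofactor supply and breakdown of the transmitters, in related transport, in the specification of the neurons and in the receipt of the signal, were described with 7 lists of 85 genes, of which 59 had a region at a TSS. In tChIP-Seq, 28 of the 59 were higher in the Camk2a than in the Rosa line and 9 were lower, with a median log2 fold change of 0.37 (all regions: 17.0% higher, 14.6% lower, median -0.0033). Receptors made up most of the increases. In single ChIP-Seq, 2 were higher and 0 lower (all regions: 0.928% higher, 1.22% lower). Beside these counts, markers of other cortical cells had lower H3K4me3 in Camk2a tChIP-Seq: 3 of 4 inhibitory neuron markers, 4 of 4 astrocyte, 4 of 4 oligodendrocyte and 4 of 4 endothelial markers with a region, at median log2 fold changes of -0.999, -2.15, -1.65 and -2.17.

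Of the 14 serotonin receptor genes, 11 had a region and 10 of these were higher in Camk2a tChIP-Seq, with 0 lower and a median log2 fold change of 1.22. Htr1a, an inhibitory G protein-coupled receptor, rose from 21.8 ± 1.25 to 70.7 ± 6.96 CPM (SD, n = 3; log2 fold change 1.71, edgeR adjusted p = 2.46e-19). Htr2c, a receptor that signals through Gq, rose by 1.46 on the log2 scale, Htr1f by 1.42 and Htr4, which raises cAMP, by 1.26. The serotonin carrier Slc6a4 was not called in the same comparison, a contrast that was not itself tested, and Tph2 and Tph1, the enzymes that start serotonin synthesis, had no region.

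Of the acetylcholine receptors, 10 of 18 had a region, and 6 were higher and 1 lower, with a median of 0.56. Chrm1, the main muscarinic receptor of cortical pyramidal neurons, rose from 52.4 ± 4.59 to 149.3 ± 14.0 CPM (SD, n = 3; log2 fold change 1.52, edgeR adjusted p = 2.82e-25). Chrnb2, a subunit of the nicotinic receptor of brain, rose by 1.11 and Chrm4 by 0.95 on the log2 scale. Chrnb1, a subunit of the nicotinic receptor of muscle, fell by 1.11. Ache, which breaks down acetylcholine and stands in the list of cofactor and degradation genes, rose by 0.69.

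Of the noradrenaline receptors, 7 of 9 had a region, and 4 were higher and 1 lower, with a median of 0.57. Adra1d rose from 58.8 ± 6.04 to 178.9 ± 11.6 CPM (SD, n = 3; log2 fold change 1.60, edgeR adjusted p = 1.55e-28), and its region also holds the start of Gm14285. Adra1b rose by 1.08 and Adrb3 by 1.04. For dopamine, 4 of 5 receptors had a region, and Drd5 alone passed the test, at 7.11 ± 1.56 CPM in Rosa and 16.0 ± 1.30 in Camk2a (SD, n = 3; log2 fold change 1.15, edgeR adjusted p = 6.79e-05). The median of the 4 was 0.49.

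The cofactor and degradation genes had a region at all 11 starts, and 2 were higher and 3 lower, with a median of -0.32. Gch1, which starts the synthesis of the cofactor tetrahydrobiopterin, fell by 0.48, and Maoa, which oxidizes monoamines, fell by 0.54. Among related transporters and enzymes, 5 of 10 had a region, and 3 were higher and 0 lower, with a median of 0.22. These were Slc22a3, a low-affinity monoamine transporter (0.70), Slc18a1, a vesicular monoamine transporter whose region also holds the start of Atp6v1b2 (0.31), and Slc44a1, a choline transporter (0.22), and each of the 3 lost its call when at least 1 of the libraries was left out. The noradrenaline carrier Slc6a2 and the enzymes Tph1, Pnmt and Hdc were among those without a region, as were most of the transmitter genes themselves.

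**Figure D5:**
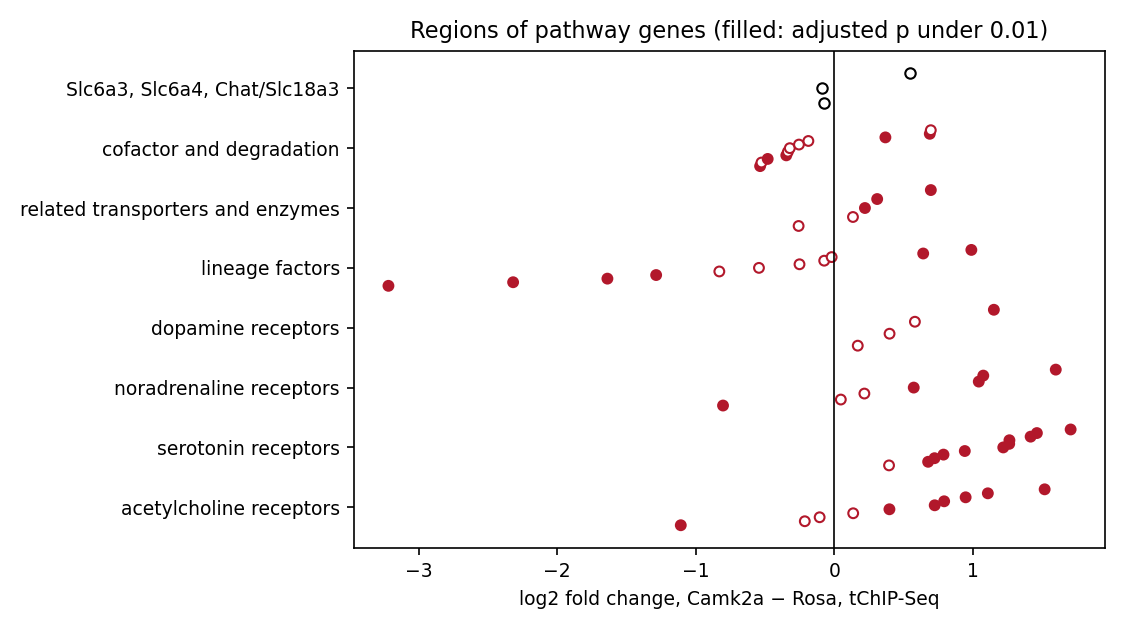
Log2 fold change between the Camk2a and the Rosa line in tChIP-Seq (horizontal axis) for each gene with a region at its TSS, by list (rows), with filled points for an adjusted p under 0.01 and the Slc6a3, Slc6a4 and Chat/Slc18a3 regions in the top row. All 11 serotonin receptor points lie above 0, lineage factors reach from -3.22 to 0.99, and none of the 3 points of the top row is filled.

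When tChIP-Seq was compared with single ChIP-Seq, 27 of the 59 regions of the 7 lists were higher and 9 lower in the Rosa line, and 40 were higher and 8 lower in the Camk2a line. Over all regions, 24.7% were higher and 22.5% lower in the Rosa line, and 25.3% and 22.6% in the Camk2a line. These shares vary with the level of the regions, which was not taken into account for the lists. In the Camk2a line the receptors were higher at 11 of 11 regions for serotonin, 4 of 4 for dopamine, 6 of 7 for noradrenaline (1 lower) and 8 of 10 for acetylcholine. In the Rosa line the same receptors were higher at 2 (3 lower), 2, 3 (2 lower) and 4 (2 lower) regions. Cofactor and degradation genes were higher at 4 regions in the Rosa line, and at 3, with 4 lower, in the Camk2a line. Related transporters and enzymes were higher at 2 and lower at 2 in each line.

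Among 18 transcription factors that specify these neurons, 11 had a region, and tChIP-Seq exceeded single ChIP-Seq at 10 of these in the Rosa line (median log2 fold change 1.70, all regions 24.7% higher). In the Camk2a line, 6 were higher and 1 lower (median 0.46, all regions 25.3% higher). Fev, a factor of serotonin neurons, was higher by 2.25 in Rosa and 3.05 in Camk2a, and Lhx8, a factor of forebrain cholinergic neurons, by 2.44 and 1.47. The mean level of the Fev region over the 4 groups was 6.59 CPM, within the range of bin 2. In that bin, 54.3% of regions were called higher in Rosa and 39.7% in Camk2a. The bins of the other factors are not given here, so the counts above stand only beside the share over all regions. Pitx3, a factor of dopamine neurons, was higher by 1.79 in Rosa (edgeR adjusted p = 4.9e-28), and its 0.14 in Camk2a did not pass the test (adjusted p = 0.561). Between the lines in tChIP-Seq, 2 factors were higher and 4 lower in Camk2a, with a median of -0.54. Fev was among the higher factors (0.99). Gata2 and Gata3, which act in serotonin and other brainstem neurons and in inhibitory neurons, fell by 2.32 and 3.22, Pitx3 by 1.64 and En2, a factor of the midbrain and hindbrain, by 1.29. The level of Gata2 was 115.8 ± 7.78 CPM in Rosa and 23.1 ± 3.88 in Camk2a tChIP-Seq (SD, n = 3; edgeR adjusted p = 1.07e-30), while Gata3 was at 12.7 ± 3.22 and 1.29 ± 0.560. No region stood at the starts of Lmx1a, Lmx1b, Foxa2, En1, Phox2a or Mnx1.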

How the data were processed

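Single and tandem ChIP DNA was sequenced as 80-nucleotide single-end reads. The authors removed reads mapping to repeats (Bowtie2 2.1.0), mapped the rest to mm9 (Bowtie 1.0.0), removed duplicates (SAMtools), called peaks with MACS, kept peaks found in triplicate and counted reads per peak (bedtools 2.17.0). The deposited values are these read counts, whole and not normalized. How the peaks of the groups were merged is not given in the sources used here. Input and FLAG libraries (12 of 24 samples) were not analysed here.

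TSSs were the 5′ ends of GENCODE M1 transcripts. RefSeq promoter sequences (from GRCm38.p6) of all 10 genes matched mm9 exactly, and only mm9 positions are given. Fits used the 6 libraries of the groups compared, or all 12 for the interaction, with edgeR 4.0.16 in R 4.3.3 (TMM, glmQLFit and glmQLFTest, no low-count filter, two-sided). SEs are the log2 fold change over the square root of F. The script was tested on simulated data. Sequences were read with pysam 0.24.0. Alternatives were DESeq2 1.42.0 (size factors, Wald test), a mean count of at least 10, a threshold of 0.05, 1 fit of all libraries, a replicate block, leaving out each library, and a TSS within 1000 bp. The RefSeq placement was added after seeing the data.

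The labels present the 3 libraries of a group as separate samples, and p-values measure the spread between these. Genes, lists and comparisons were chosen with earlier results of these data known. Of each list, up to 4 genes with the largest log2 fold change among those called between the lines in tChIP-Seq were named, and a few genes of the lists are not reported here. Lineage factors named for the comparison of tChIP-Seq with single ChIP-Seq (Fev, Lhx8) and genes without a region were chosen after their values were seen. Genes most alike in pattern were to be named for a region called between the lines in tChIP-Seq, and there was none.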

Additional observations from a re-analysis of the deposited data

Results flagged for a closer look

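The regions of Slc6a3, Slc6a4 and the Chat and Slc18a3 locus had no difference of line effects that passed the test. Of the other genes named above, the effect of line differed between tChIP-Seq and single ChIP-Seq at 20 by the interaction term of edgeR (adjusted p under 0.01). Over all regions, 26.9% were called by this term. The difference, Camk2a against Rosa in tChIP-Seq less the same in single ChIP-Seq on the log2 scale, was above 0 for the serotonin receptors Htr1a (1.75), Htr2c (1.38), Htr1f (1.30) and Htr4 (1.22), for the acetylcholine receptors Chrm1 (1.42), Chrm4 (1.11) and Chrnb2 (1.10), and for Adra1d (1.63), Drd5 (1.31), Adrb3 (0.97) and Adra1b (0.85). It was also above 0 for Ache (0.71), Slc18a1 (0.39) and Slc44a1 (0.31). The last 2 lost this call without 1 library, Slc18a1 without Camk2a single replicate 3 or Camk2a tChIP-Seq replicate 3 (adjusted p up to 0.0284) and Slc44a1 without Camk2a tChIP-Seq replicate 2 (adjusted p = 0.0105). It was below 0 for Gata3 (-2.47), Gata2 (-2.16), Pitx3 (-1.64), En2 (-1.12), Maoa (-0.60) and Gch1 (-0.59). These genes had been named for their line effect in tChIP-Seq, which is part of this difference.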

How the results depend on the processing

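At Slc6a3, Slc6a4 and the Chat and Slc18a3 region, each alternative that could be computed left the calls as reported, and a TSS within 1000 bp in place of overlap gave 3 regions, all higher in tChIP-Seq in both lines. The smallest increase, Slc6a3 in the Camk2a line, lay between 1.18 and 1.32 (edgeR or DESeq2 adjusted p from 5.91e-05 to 0.00498). At Slc6a4 the line effect in tChIP-Seq ranged from -0.13 to 0.011 without 1 library, and turned from -0.07 to 0.011 without Rosa tChIP-Seq replicate 1 (edgeR adjusted p = 0.973). In single ChIP-Seq, the line effect at Slc6a3 had adjusted p values from 0.044 to 0.484. The Chat and Slc18a3 region did not reach a mean of 10 counts in the fits of Rosa tChIP-Seq against single ChIP-Seq and of the lines in single ChIP-Seq. Counts of 7 to 15 in some groups at Slc6a3 and this region limit what their comparisons could show.

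Over all regions, the line effect in single ChIP-Seq (167 higher, 219 lower) was 27 and 7 with the Wald test of DESeq2, 522 and 669 at an adjusted p under 0.05, and from 69 to 131 and from 49 to 165 without 1 library. Of the pathway genes, 2 were higher and 0 lower, against 0 higher with the Wald test, 1 higher with the mean count filter, 4 higher and 1 lower at 0.05, and from 0 to 2 higher without 1 library (0 without Rosa single replicate 2 or Camk2a single replicate 1). In Camk2a tChIP-Seq against single ChIP-Seq, 4058 regions were lower, against 2414 with the Wald test, and of the pathway genes 40 were higher and 8 lower, the latter against 3 with the Wald test and from 4 to 8 without 1 library (4 without Camk2a tChIP-Seq replicate 3). Slc18a1, Slc44a1 and Slc22a3 lost their call in tChIP-Seq between the lines under the Wald test and without 1 library (adjusted p up to 0.0826, 0.0601 and 0.0254 over the alternatives). For Slc18a1 this was each of the 3 Rosa tChIP-Seq libraries and Camk2a tChIP-Seq replicates 2 and 3, for Slc44a1 Rosa replicates 1 and 3 and Camk2a replicates 1 and 2, and for Slc22a3 Rosa replicate 2. The cause of these changes was not tested.

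The labels number the libraries 1 to 3 in each group, and same-numbered libraries deviated together little, if at all (r from -0.02 to 0.05 over 18 pairs and 11582 regions). Most of these pairs join different lines. Between single and tandem libraries of the same line, r was 0.0073 to 0.055 for the same number and -0.039 to 0.025 for different numbers. With the replicate number as a block, 2948 regions were higher and 2520 lower between the lines in tChIP-Seq, against 3062 and 2620, and Slc6a3 and Slc6a4 were at -0.09 and -0.07. For tChIP-Seq against single ChIP-Seq in the Rosa line, the block gave 4424 higher and 4049 lower, against 4439 and 4046. In the Camk2a line it gave 4505 and 4011, against 4559 and 4058.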
